A study of Homo sapiens with 6 samples.

Results

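Interferon-stimulated genes were examined as a group of 41 genes, chosen by symbol and found as 41 of the 35410 listed genes of the count table, each under its own row. RNA was measured by MACE-Seq, which sequences the 3′ ends of polyadenylated transcripts and counts them per gene so that gene length has little bearing on a count, in 3 SEM::mock and 3 SEM::EGR3 libraries, each from a biological replicate. SEM, an established leukemia cell line of human proB cells, carries the KMT2A::AFF1 fusion. SEM::EGR3 holds a doxycycline-inducible EGR3 transgene and SEM::mock the empty vector, and both lines had received 1 µg/mL doxycycline for 48 h, so that the doxycycline was shared by all 6 libraries. The comparison asked which transcripts differed when EGR3, a zinc finger transcription factor of the early growth response family, was expressed. Whether either line is a single clone is not given in the sources used here, and the replicates of a line share that line.

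Interferons are secreted proteins that warn cells of infection. Type I interferons bind the IFNAR1 and IFNAR2 receptor chains, the kinases JAK1 and TYK2 are then active, and the transcription factor complex ISGF3, which contains STAT2 and IRF9, binds the interferon-stimulated response element (ISRE) in promoters. Interferon gamma acts through IFNGR1, IFNGR2, JAK1 and JAK2 on genes with a gamma-activated site (GAS). The genes switched on in this way encode proteins that bind viral RNA, block entry or fusion of viruses, tag proteins with ISG15 and raise the level of the sensors themselves. Many of them are also transcribed at a low level without any interferon.

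The letters of the ISRE were searched as TTTC, any 2 bases, TTTC on both strands of the RefSeq promoter windows (GRCh38.p14), which reach from 250 bases before to 50 bases after each gene start. Windows were given for 33 of the 41 genes, and 24 of these 33 (72.7%) held the letters, against 1195 of 27305 genes with a window (4.38%). IFIT2, IFITM2, MX2, OAS2, OASL, USP18, TRIM22 and GBP2 have no window in the table. The GAS letters, TTC, any 3 bases and GAA, were found in 8 of the 33 (24.2%) and in 9.38% of all genes. A core of the EGR motif, GCG, any base and GGGCG, was found in 0 of the 33 and in 11.2% of all genes. Each motif was searched by itself on both strands, so that matches of different motifs may share bases. The letters of the ISRE occurred in a window of 11 of the 16 genes with a window that were higher in SEM::EGR3, of 9 of the 12 that were lower and of 2 of the 3 that did not pass the test. A match is a description of the letters and not of binding.

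The 200 bases before the gene start are shown for 6 genes, read 5′ to 3′ on the strand of the gene, with the matches of the ISRE letters on either strand in capitals. IFIT1, IFIT5 and GBP1 were higher in SEM::EGR3, IFITM3 and IFIH1 were lower, and OAS3 did not pass the test, so that the same letters stand before genes of each kind.
IFIT1, chr10:89392423-89392622, plus strand: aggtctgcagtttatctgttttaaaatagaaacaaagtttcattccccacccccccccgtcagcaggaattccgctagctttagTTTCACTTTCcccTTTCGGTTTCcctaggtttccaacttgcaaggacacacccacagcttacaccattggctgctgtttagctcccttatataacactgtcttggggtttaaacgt
IFIT5, chr10:89414368-89414567, plus strand: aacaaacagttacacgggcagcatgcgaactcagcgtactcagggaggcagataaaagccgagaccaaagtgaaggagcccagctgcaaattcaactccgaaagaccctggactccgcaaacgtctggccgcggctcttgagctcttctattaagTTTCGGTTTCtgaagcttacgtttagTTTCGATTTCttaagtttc
GBP1, chr1:89065209-89065408, minus strand: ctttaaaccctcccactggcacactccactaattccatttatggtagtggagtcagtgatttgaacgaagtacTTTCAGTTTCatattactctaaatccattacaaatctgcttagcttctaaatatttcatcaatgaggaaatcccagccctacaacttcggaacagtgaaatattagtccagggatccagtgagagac
IFITM3, chr11:320861-321060, minus strand: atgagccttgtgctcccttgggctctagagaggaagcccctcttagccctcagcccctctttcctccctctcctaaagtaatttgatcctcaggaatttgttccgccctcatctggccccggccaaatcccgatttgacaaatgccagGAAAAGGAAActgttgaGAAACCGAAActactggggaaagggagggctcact
IFIH1, chr2:162318685-162318884, minus strand: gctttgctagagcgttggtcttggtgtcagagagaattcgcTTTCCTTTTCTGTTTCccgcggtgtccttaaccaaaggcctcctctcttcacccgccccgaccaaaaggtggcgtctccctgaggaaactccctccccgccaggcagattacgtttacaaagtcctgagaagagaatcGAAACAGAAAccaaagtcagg
OAS3, chr12:112938274-112938473, plus strand: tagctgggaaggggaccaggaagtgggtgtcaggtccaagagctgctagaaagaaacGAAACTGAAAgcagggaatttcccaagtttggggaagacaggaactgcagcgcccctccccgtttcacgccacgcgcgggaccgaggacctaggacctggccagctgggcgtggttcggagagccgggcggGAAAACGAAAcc

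The libraries were checked against their labels before the group was read. Counts summed to between 5286115 and 6181388 in SEM::mock and between 7293092 and 15106018 in SEM::EGR3, so low counts are less precise in SEM::mock. EGR3 transcripts were counted 8, 10 and 6 times in SEM::mock and 9768, 4952 and 5557 times in SEM::EGR3, with a log2 fold change of 8.78 (SE 0.11, adjusted p = 1.27e-26, edgeR quasi-likelihood test). The labelled cell type was not borne out by its markers in SEM::mock, and in SEM::EGR3 it was borne out by only part of them. Of 14 proB marker genes, 10 were tested and 10 were higher in SEM::EGR3. The summed level of the 14 was 49.3 to 58.6 CPM (TMM-normalized counts per 1000000) in SEM::mock and 922 to 965 CPM in SEM::EGR3. Most of the SEM::mock sums came from LEF1 alone, with 46.65, 52.26 and 52.75 CPM there and 278.1, 246.6 and 280.1 CPM in SEM::EGR3. EBF1 and IGHM were at 0 counts in SEM::mock, and PAX5 had 1, 1 and 2. The 4 markers not tested had few counts in SEM::EGR3 too. BLNK had 0, 1 and 0 there, RAG2 1, 0 and 0, DNTT 2, 0 and 1, and VPREB1 8, 6 and 5. Of 12 targets of KMT2A fusions, 12 were higher in SEM::EGR3, with HOXA7 at 0 counts in SEM::mock and sums of 200 to 218 CPM against 1589 to 1701 CPM. Of 18 tested erythroid and megakaryocyte genes, 4 were higher and 14 lower, and their sums were high in both lines, 5975 to 6318 CPM in SEM::mock and 6741 to 6953 CPM in SEM::EGR3. Myeloid genes (2 of 6 tested higher, 4 lower) summed to 354 to 361 CPM in SEM::mock and 250 to 254 CPM in SEM::EGR3. MPO and CSF1R had 0 counts in SEM::mock. LYZ (155 against 42.7 CPM) and CD33 (124 against 48.1 CPM) were lower in SEM::EGR3. CEBPA (12.4 against 126.9 CPM) and ITGAM (4.09 against 13.13 CPM) were higher. T and NK cell genes (1 of 3 tested higher, 2 lower) summed to 61.0 to 65.9 against 9.35 to 11.5 CPM. CD8A was at 0 in both lines, and CD3D had 58.1 against 6.26 CPM. CD2 went the other way, with counts of 1, 0 and 0 in SEM::mock and of 31, 21 and 18 in SEM::EGR3. In the comparisons below, EGR3 expression and other differences between these lines cannot be told apart, and the part of these marker genes in the results was not tested.

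Interferon-stimulated genes moved in both directions between the lines. Of the 41 genes, 36 had enough counts to be tested, 19 were higher in SEM::EGR3, 14 were lower and 3 did not pass an adjusted p of 0.05. The strongest increases were in IFIT5 and IFIT1, OAS1, GBP1, MX2, ISG20, XAF1 and IFI44, which had 0 to 7 counts in each SEM::mock library. The strongest decreases were in IFITM1, IFITM3, CMPK2 and GBP4. The 33 genes that passed the test were 91.7% of those tested. Over all 15465 tested genes 68.5% passed, 36.5% as higher and 32% as lower, so differences between these lines were common across the table. In bulk libraries, fewer cells that transcribe a gene and less of its RNA per cell cannot be told apart.

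**Figure D1:**
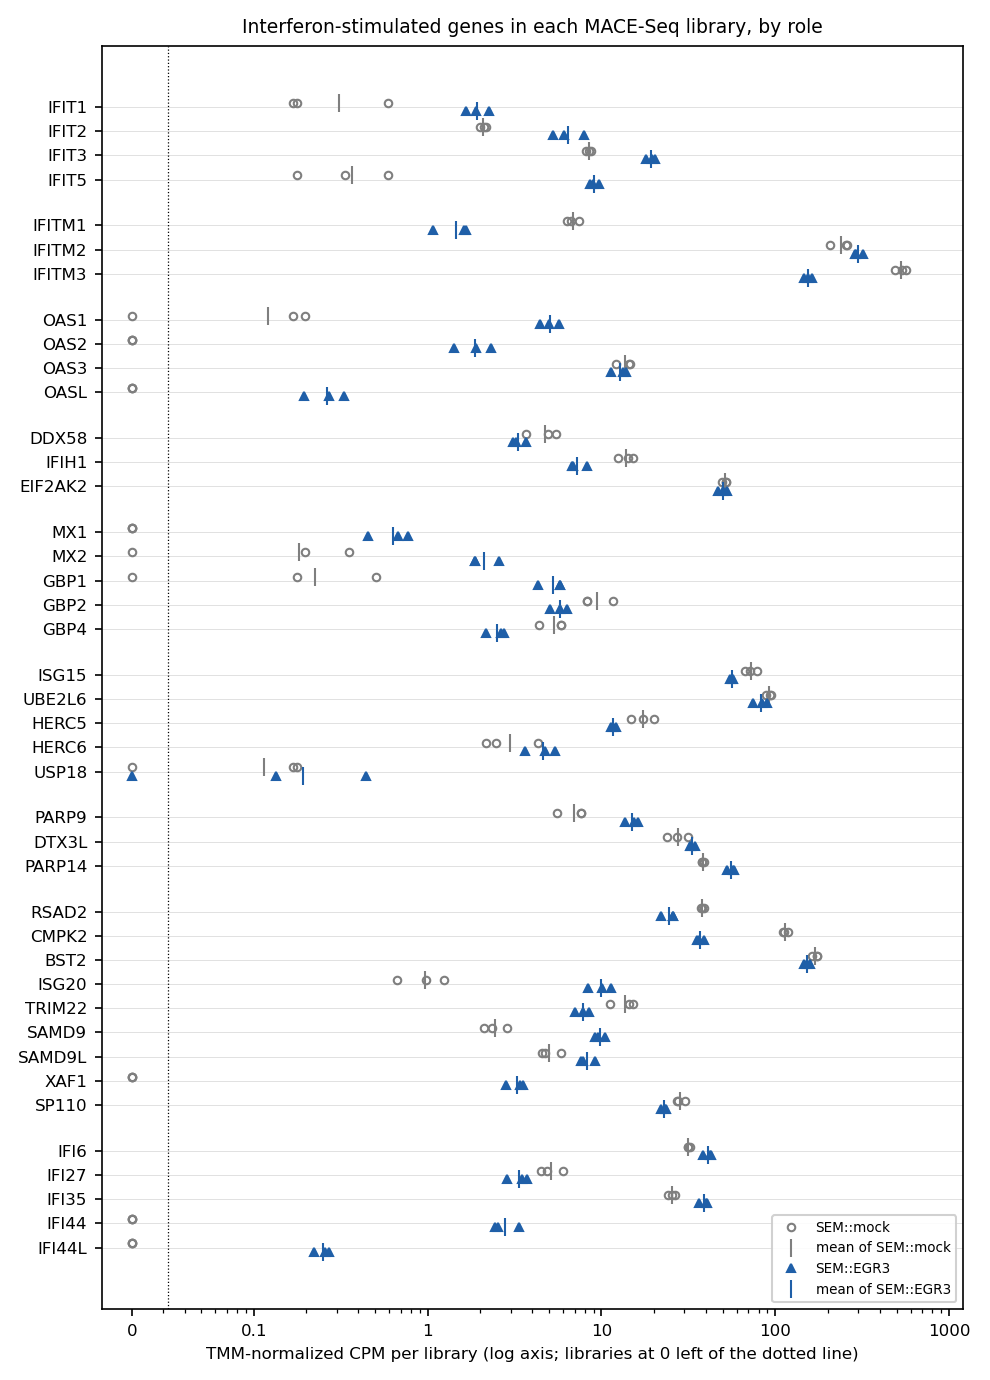
TMM-normalized CPM of the 41 interferon-stimulated genes (log axis) in the 3 SEM::mock libraries (grey circles) and the 3 SEM::EGR3 libraries (blue triangles), with the mean of each line as a tick, ordered by role; libraries at 0 lie left of the dotted line. The lines lie far apart for IFIT5, OAS1, GBP1 and ISG20 and for IFITM3 and CMPK2, and they overlap for OAS3 and EIF2AK2.

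With a log2 fold change of at least 1 as a further condition, 12 of the 36 were higher, where 16.7% of all tested genes were, and 4 were lower at -1 or below, where 8.5% of all tested genes were. The libraries of both lines did not overlap in CPM for 32 of the 36 genes (88.9%), against 70.1% of all tested genes. The fitted log2 fold changes ran from -2.18 to 7.75, with a median of 0.29 beside 0.03 over all tested genes. The middle part of the distribution, from the lower to the upper quartile, reached from -0.57 to 1.68 and that of all tested genes from -0.39 to 0.57. In absolute size the median was 0.77 beside 0.47. These summaries lean on the filter, because 8 of the 36 had fewer than 10 counts in every SEM::mock library, were kept through SEM::EGR3 and were all higher. Among the other 28 genes, 4 (IFIT2, IFIT3, PARP9 and SAMD9, 14.3%) were higher with a log2 fold change of at least 1. The 16.7% of all tested genes is not a like share, because it still holds genes with such low SEM::mock counts. When 10 counts were required in every library, 27 of the genes remained, with 11 higher, 11 lower and a median of -0.11. Over all 12801 genes tested at that filter, 4251 were higher and 4230 lower, with a median of -0.001.

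The levels of the 41 genes summed to 1513, 1626 and 1584 CPM in SEM::mock and to 1218, 1207 and 1199 CPM in SEM::EGR3. Without IFITM3 the sums were close, as the other 40 genes gave 1027, 1063 and 1050 CPM in SEM::mock and 1063, 1044 and 1052 CPM in SEM::EGR3, a sum formed after the values were seen. These sums hold changes in both directions, such as mean CPM of 114 and 36.8 for CMPK2 and of 239.5 and 298 for IFITM2 (SEM::mock and SEM::EGR3). IFITM3 was the most abundant of the 41 genes in SEM::mock and IFITM2 in SEM::EGR3. In SEM::mock 12 of the 41 (29.3%) had at most 3 counts in each library, against 50.4% of all 35410 listed genes, and 6 of these 12 had 0 in all. In SEM::EGR3 only OASL (2.4%) had at most 3 counts in each library, against 37.9% of all listed genes, and none of the 41 was at 0 in all. These shares depend on depth, which was higher in SEM::EGR3.

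**Figure D2:**
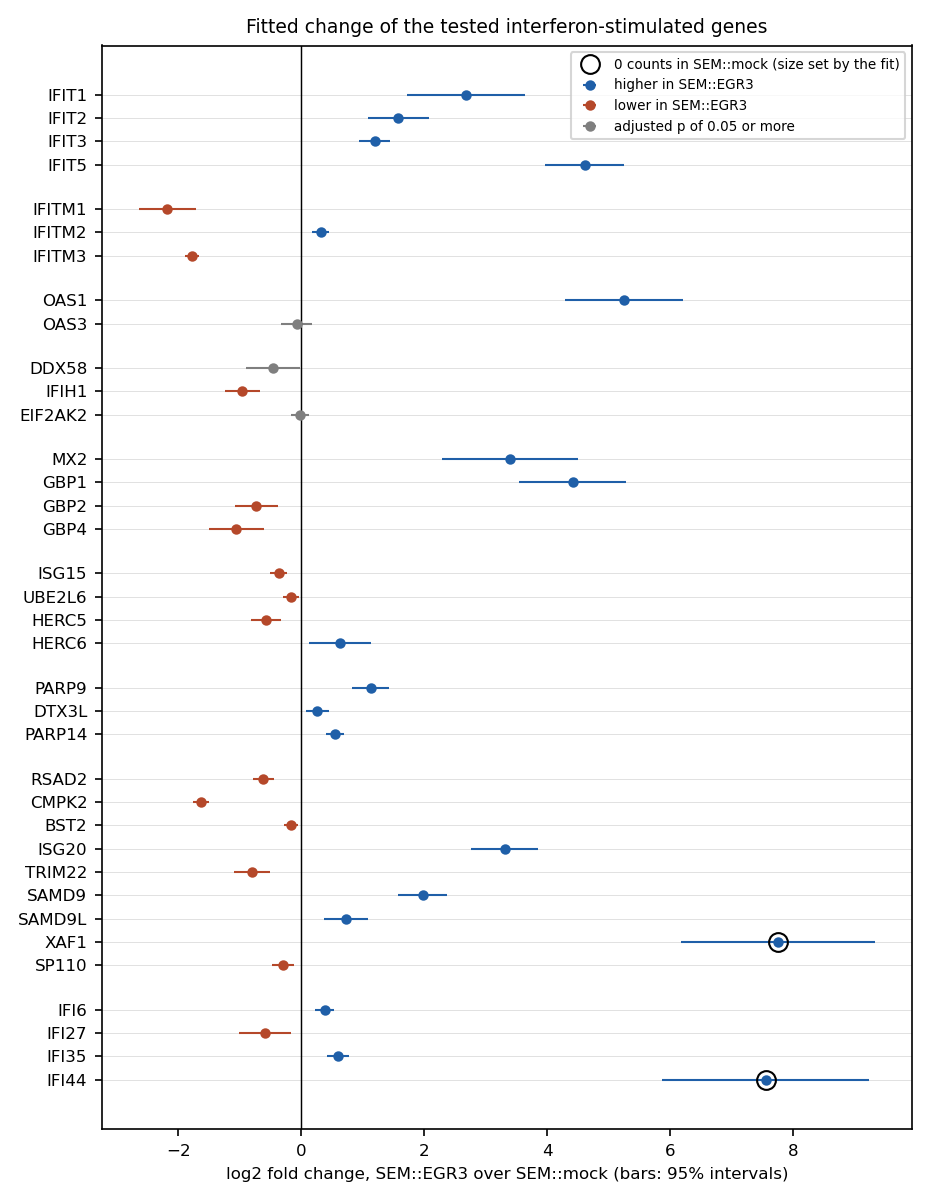
Fitted log2 fold change of SEM::EGR3 over SEM::mock for the 36 tested interferon-stimulated genes, ordered by role. Bars are approximate 95% intervals that take a normal distribution and are narrower than the test itself would give. Colours give the call, and a black ring marks the 2 genes without a count in SEM::mock, whose size is set by the fit. The 8 genes with fewer than 10 counts in every SEM::mock library, kept by the filter through SEM::EGR3, are all increases, and without them the changes run from -2.18 (IFITM1) to 1.97 (SAMD9). Genes of the IFITM, GBP and HERC groups lie on both sides of 0.

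The IFIT genes encode proteins that bind viral RNA ends and hold back its translation, and all 4 were higher. IFIT1 was counted 1, 1 and 3 times in SEM::mock and 35, 14 and 15 times in SEM::EGR3, or 0.311 ± 0.240 and 1.93 ± 0.303 CPM (mean ± SD, n = 3 libraries here and below), with a log2 fold change of 2.68 (SE 0.49, adjusted p = 3.44e-05, edgeR). IFIT5 gave counts of 1, 2 and 3 in SEM::mock and of 139, 64 and 88 in SEM::EGR3, which gave a log2 fold change of 4.61 (SE 0.33, adjusted p = 5.71e-12, edgeR). Both genes were close to silent in SEM::mock. IFIT2 had 2.12, 2.01 and 2.16 CPM in SEM::mock and 5.29, 6.06 and 7.96 CPM in SEM::EGR3 (log2 fold change 1.58, SE 0.25, adjusted p = 5.7e-06, edgeR). IFIT3, which joins IFIT1 and IFIT2 in a complex, was the most abundant of the family with 8.13, 8.71 and 8.43 CPM in SEM::mock and 19.6, 17.9 and 20.2 CPM in SEM::EGR3 (log2 fold change 1.20, SE 0.13, adjusted p = 1.09e-08, edgeR). No library of SEM::mock reached a library of SEM::EGR3 for any of the 4. The 4 genes lie side by side on chromosome 10 between 89283694 and 89421001 (GRCh38). LIPA is annotated on the opposite strand over IFIT1, IFIT2 and IFIT3, and the strand setting of the counting is not given in the sources used here.

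The IFITM genes encode small membrane proteins that hinder the fusion of viruses with the cell, and they went in different directions. IFITM3 had 486, 563 and 534 CPM in SEM::mock and 155, 163 and 147 CPM in SEM::EGR3, a log2 fold change of -1.77 (SE 0.06, adjusted p = 2.44e-18, edgeR). IFITM1 was counted 36, 40 and 38 times in SEM::mock and 25, 8 and 15 times in SEM::EGR3, although these libraries were deeper, or 6.84 ± 0.558 and 1.45 ± 0.323 CPM. Its log2 fold change was -2.18 (SE 0.24, adjusted p = 1.28e-08, edgeR), the largest decrease of the 36 genes. IFITM2 had 206, 258 and 254 CPM in SEM::mock and 318, 286 and 289 CPM in SEM::EGR3 and was slightly higher, with a log2 fold change of 0.32 (SE 0.07, adjusted p = 2.29e-04, edgeR). IFITM2 had the higher CPM of the pair in SEM::EGR3, and IFITM3 in SEM::mock. The 3 genes are close paralogs within 307631 to 327537 of chromosome 11, and the annotated span of IFITM1 lies inside that of IFITM2 on the same strand, so reads may have been split between them or left out in counting.

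The OAS genes encode enzymes that are switched on by double-stranded RNA and make short oligoadenylates, the signal for RNase L, while OASL has lost this activity. OAS1 gave counts of 0, 1 and 1 in SEM::mock and of 88, 37 and 40 in SEM::EGR3, a ratio of 43.2 with a 95% interval of 11.8 to 359 that covers counting error only (exact conditional binomial), and it passed the test (adjusted p = 7.82e-10, edgeR). OAS2 had 0 counts in SEM::mock and 22, 14 and 21 in SEM::EGR3, which is at least 9.94-fold higher against 3 counts taken over the SEM::mock libraries. OAS2 was below the filter and not tested, and without the filter it was called higher (adjusted p = 2.35e-10, edgeR). OASL had 0 counts in SEM::mock and 3, 2 and 3 in SEM::EGR3, too few for a fold. It was not called without the filter (adjusted p = 0.0813, edgeR). OAS3 differed from these, with 12.2, 14.4 and 14.5 CPM in SEM::mock and 13.9, 11.3 and 13.3 CPM in SEM::EGR3. Its libraries overlapped, and its log2 fold change of -0.07 (95% interval -0.33 to 0.18, adjusted p = 0.638, edgeR) did not pass the test. OAS1, OAS3 and OAS2 lie in this order within 112906777 to 113011723 of chromosome 12, so a gene with overlapping libraries stood between 2 genes that were almost silent in SEM::mock.

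None of the sensors and the RNA-dependent kinase was higher in SEM::EGR3. IFIH1, which encodes the sensor MDA5 for long double-stranded RNA, had 15.2, 12.4 and 14.1 CPM in SEM::mock and 6.84, 8.22 and 6.74 CPM in SEM::EGR3 and was lower (log2 fold change -0.95, SE 0.15, adjusted p = 3.28e-06, edgeR). DDX58, which encodes the sensor RIG-I, was counted 28, 22 and 28 times in SEM::mock and 57, 23 and 29 times in SEM::EGR3. Its CPM did not overlap between the lines, but its log2 fold change of -0.46 did not pass the test (SE 0.22, unadjusted p = 0.0508, adjusted p = 0.0719, edgeR). It was called lower without SEM::mock replicate 2 (-0.63, adjusted p = 0.0291, edgeR). EIF2AK2, which encodes the kinase PKR that stops translation, had 51.0 ± 1.32 and 49.9 ± 2.94 CPM. Its interval reached from -0.17 to 0.12 on the log2 scale (adjusted p = 0.805, edgeR). GPATCH11 lies opposite to EIF2AK2, so reads of both could not be told apart if strand was not used.

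The MX and GBP genes encode large GTPases, of which the MX proteins trap viral nucleocapsids and the GBP proteins coat membranes around microbes. GBP1 gave counts of 1, 3 and 0 in SEM::mock and of 90, 32 and 52 in SEM::EGR3 (log2 fold change 4.41, SE 0.44, adjusted p = 3.28e-09, edgeR). Of its neighbours on chromosome 1, GBP4 and GBP2, also among the 41, went the other way. GBP3, a neighbour outside the 41, did not pass the test (log2 fold change 0.32, SE 0.28, adjusted p = 0.313, edgeR). GBP4 was counted 33, 26 and 30 times in SEM::mock and 41, 16 and 25 times in SEM::EGR3, or 5.36 ± 0.868 and 2.52 ± 0.322 CPM (log2 fold change -1.05, SE 0.23, adjusted p = 2.35e-04, edgeR). GBP2 fell from 9.42 ± 1.99 to 5.74 ± 0.626 CPM (log2 fold change -0.73, SE 0.18, adjusted p = 8.16e-04, edgeR). MX2, on chromosome 21, gave counts of 2, 0 and 1 in SEM::mock and of 29, 19 and 17 in SEM::EGR3, a ratio of 11.3 (95% counting interval 3.71 to 56.4, adjusted p = 9.06e-06, edgeR). MX1, which lies next to MX2, had 0 counts in SEM::mock and 7, 5 and 7 in SEM::EGR3. That is at least 3.31-fold higher, below the filter, and called higher without it (adjusted p = 0.00128, edgeR). MX1 is among the genes most widely used to read an interferon response, and its level in SEM::EGR3 was 0.633 ± 0.165 CPM.

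ISG15 is a ubiquitin-like protein that UBE2L6 (the conjugating enzyme) and HERC5 (the ligase) attach to other proteins and that USP18 takes off again. Of ISG15, UBE2L6, HERC5 and HERC6, the tested genes grouped here, all except HERC6 were lower in SEM::EGR3. ISG15 had 77.9, 66.8 and 71.8 CPM in SEM::mock and 54.6, 57.4 and 56.4 CPM in SEM::EGR3, and the lines did not overlap (log2 fold change -0.37, SE 0.07, adjusted p = 5.53e-05, edgeR). HERC5 had 17.4 ± 2.58 and 11.7 ± 0.415 CPM (log2 fold change -0.57, SE 0.13, adjusted p = 3.5e-04, edgeR). UBE2L6 had 91.7 ± 3.12 and 82.6 ± 7.50 CPM with overlapping libraries, and its call (log2 fold change -0.17, SE 0.07, adjusted p = 0.0383, edgeR) was lost under 8 of the alternatives. Those included the fits without SEM::mock replicate 2 (-0.16, adjusted p = 0.0875), SEM::EGR3 replicate 1 (-0.08, adjusted p = 0.328) and SEM::EGR3 replicate 3 (-0.18, adjusted p = 0.0579). HERC6, the neighbour of HERC5 on chromosome 4, was counted 14, 13 and 22 times in SEM::mock and 73, 40 and 33 times in SEM::EGR3, again with overlapping CPM. Its call (log2 fold change 0.64, SE 0.26, adjusted p = 0.0324, edgeR) was lost under 7 alternatives, among them the fits without SEM::mock replicate 1 (0.51, adjusted p = 0.136) or 2 (0.43, adjusted p = 0.196) and those that omitted SEM::EGR3 replicate 1 (0.60, adjusted p = 0.0824) or 2 (0.55, adjusted p = 0.0771). USP18 gave counts of 1, 1 and 0 in SEM::mock and of 0, 1 and 4 in SEM::EGR3, too few to compare.

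PARP9, DTX3L and PARP14 are neighbours on chromosome 3 that act in ADP-ribosylation and ubiquitin transfer, and all 3 were higher. PARP9 had 7.60, 5.53 and 7.65 CPM in SEM::mock and 15.3, 16.2 and 13.7 CPM in SEM::EGR3 (log2 fold change 1.13, SE 0.15, adjusted p = 4.51e-07, edgeR). PARP14 had 38.2 ± 0.593 and 55.7 ± 2.85 CPM (log2 fold change 0.55, SE 0.08, adjusted p = 5.27e-07, edgeR). DTX3L, the ubiquitin ligase that pairs with PARP9, had 27.5 ± 3.68 and 33.2 ± 1.26 CPM. Its call (log2 fold change 0.26, SE 0.10, adjusted p = 0.0178, edgeR) was lost without SEM::mock replicate 3 (0.16, adjusted p = 0.169), without SEM::mock replicate 2 (0.24, adjusted p = 0.0626) and with DESeq2 (0.26, adjusted p = 0.0594). PARP9 and DTX3L overlap head to head on opposite strands.

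Among the other antiviral effectors 4 genes were higher and 5 lower. XAF1, a pro-apoptotic gene, had 0 counts in SEM::mock and 53, 21 and 32 in SEM::EGR3, which makes it at least 18.5-fold higher (adjusted p = 1.32e-08, edgeR). ISG20, an RNA exonuclease, was counted 7, 4 and 5 times in SEM::mock and 129, 84 and 91 times in SEM::EGR3 (log2 fold change 3.31, SE 0.28, adjusted p = 1.23e-10, edgeR). SAMD9 gave counts of 12, 17 and 12 in SEM::mock and of 142, 71 and 95 in SEM::EGR3 (log2 fold change 1.97, SE 0.21, adjusted p = 6.76e-09, edgeR). Its paralog and neighbour on chromosome 7, SAMD9L, went the same way by less, with 5.02 ± 0.709 and 8.22 ± 0.874 CPM (log2 fold change 0.74, SE 0.18, adjusted p = 9.9e-04, edgeR). All of these were below 10 CPM in the means of both lines.

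The effectors that decreased had higher levels than those that increased in SEM::mock, though not all of them did in SEM::EGR3. CMPK2, a mitochondrial nucleotide kinase, had 119, 112 and 110 CPM in SEM::mock and 36.2, 35.3 and 38.9 CPM in SEM::EGR3 (log2 fold change -1.63, SE 0.07, adjusted p = 1.06e-16, edgeR). RSAD2, which encodes viperin and lies head to head with CMPK2 on chromosome 2, had 38.9, 37.5 and 37.9 CPM in SEM::mock and 25.8, 22.1 and 25.9 CPM in SEM::EGR3 (log2 fold change -0.62, SE 0.09, adjusted p = 1.13e-06, edgeR). The annotated spans of these 2 genes overlap at their starts on opposite strands. BST2, which encodes tetherin, had 170 ± 6.73 and 152 ± 5.76 CPM, and its call (log2 fold change -0.16, SE 0.06, adjusted p = 0.0128, edgeR) was lost under 3 alternatives, among them the fit without SEM::EGR3 replicate 1 (-0.13, adjusted p = 0.0814). TRIM22 (13.6 ± 2.13 and 7.78 ± 0.689 CPM) and SP110 (28.2 ± 1.70 and 22.9 ± 0.757 CPM) were lower with adjusted p of 4.52e-05 and 0.00689 (edgeR). TRIM5 lies opposite to TRIM22 in the annotation.

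The IFI genes are named for their induction and share no single function. IFI44 had 0 counts in SEM::mock and 52, 18 and 23 in SEM::EGR3, which makes it at least 16.2-fold higher (adjusted p = 5.42e-08, edgeR). Its paralog and neighbour on chromosome 1, IFI44L, had 0 counts in SEM::mock and 4, 2 and 2 in SEM::EGR3, too few for a fold. IFI44L was not called without the filter (adjusted p = 0.0824, edgeR). IFI6, which encodes a small membrane protein, had 31.6 ± 0.498 and 40.9 ± 2.31 CPM (log2 fold change 0.38, SE 0.08, adjusted p = 2.26e-04, edgeR). IFI35 had 25.5 ± 1.21 and 38.8 ± 2.17 CPM (log2 fold change 0.60, SE 0.09, adjusted p = 1.87e-06, edgeR). IFI27 was lower with 5.13 ± 0.784 and 3.37 ± 0.448 CPM. Its call (log2 fold change -0.58, SE 0.22, adjusted p = 0.0199, edgeR) was lost under 4 alternatives, among them the fits without SEM::mock replicate 1 (-0.47, adjusted p = 0.109) and with SEM::EGR3 replicate 3 left out (-0.49, adjusted p = 0.0721).

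Neighbouring genes of the group did not always go in the same direction. Of the 41 genes, 26 lie in 10 clusters with gaps of at most 250 kb between members. In 3 of these clusters, GBP on chromosome 1, IFITM on chromosome 11 and HERC on chromosome 4, some genes were higher and others lower. The HERC cluster counts through HERC6 alone, whose call was lost under 7 alternatives. The IFIT, PARP9 to PARP14 and SAMD9 clusters held only increases, and the cluster of CMPK2 and RSAD2 only decreases. The remaining clusters held a gene that was not tested.

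Genes of the interferon pathway itself were read from a list of 61 symbols, of which 42 have a row, 35 were tested, 13 were higher, 10 lower and 12 did not pass the test. Those called were 65.7% of the tested genes of the list and those called higher 37.1%, near the 68.5% and 36.5% of all tested genes. When 10 counts were required in every library, 7 of 29 were higher, beside 4251 of all 12801 genes tested at that filter. Ligand transcripts were almost absent. IFNA1, IFNE and IFNL3 had 1 count each in the deepest SEM::EGR3 library and 0 elsewhere, and IFNB1 had 1, 0 and 1 counts in SEM::EGR3 and 0 in SEM::mock. The other 17 ligand symbols have no row in the table. Genes within or beside the type I interferon cluster on chromosome 9 also differed. KLHL9, which lies between IFNB1 and IFNA1, and CDKN2A had 0 counts in SEM::mock, MTAP had 0, 0 and 1 and FOCAD 0, 1 and 0. In SEM::EGR3 the same genes had 309, 128 and 166 counts (KLHL9), 2356, 1127 and 1357 (CDKN2A), 380, 182 and 214 (MTAP) and 168, 89 and 106 (FOCAD). MLLT3, also from this list of neighbours, went the other way with counts of 109, 108 and 106 in SEM::mock and of 70, 27 and 44 in SEM::EGR3 (log2 fold change -2.13, SE 0.15, adjusted p = 3.14e-12, edgeR). The part of these differences in the interferon results was not tested.

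The tested receptor and kinase genes changed by less than 1 on the log2 scale or did not pass the test. The interferon gamma receptor chains were lower, IFNGR1 with 32.7 ± 2.09 and 17.1 ± 0.976 CPM (log2 fold change -0.95, SE 0.10, adjusted p = 5.19e-09, edgeR) and IFNGR2 with 53.2 ± 4.08 and 34.3 ± 1.50 CPM (log2 fold change -0.64, SE 0.08, adjusted p = 1.1e-07, edgeR). The type I receptor chains had small calls, IFNAR1 at 0.24 (SE 0.08, adjusted p = 0.0118, edgeR) and IFNAR2 at -0.24 (SE 0.10, adjusted p = 0.0409, edgeR), of which that of IFNAR1 was lost without SEM::mock replicate 3 (0.16, adjusted p = 0.12) and that of IFNAR2 under 10 alternatives. For IFNAR2 these included leaving out SEM::mock replicate 2 (-0.20, adjusted p = 0.129) or 3 (-0.23, adjusted p = 0.0944) and SEM::EGR3 replicate 1 (-0.22, adjusted p = 0.101) or 3 (-0.22, adjusted p = 0.099). IL10RB, a chain of the interferon lambda receptor, did not pass the test (-0.26, SE 0.22, adjusted p = 0.312, edgeR), and IFNLR1 had 1 to 4 counts per library. JAK2 had 13.6 ± 3.42 and 7.52 ± 0.856 CPM and was lower (log2 fold change -0.87, SE 0.17, adjusted p = 5.77e-05, edgeR). JAK1 was lower by less (-0.27, SE 0.07, adjusted p = 0.00116, edgeR), and TYK2 did not pass the test (0.12, SE 0.08, adjusted p = 0.19, edgeR) except without SEM::mock replicate 2 (0.19, adjusted p = 0.0497) or without normalization factors (0.19, adjusted p = 0.03).

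STAT2 did not pass the test, while IRF9, its partner in ISGF3, was higher. STAT2 had 39.5 ± 4.85 CPM in SEM::mock and 35.2 ± 4.36 CPM in SEM::EGR3 (log2 fold change -0.19, SE 0.10, adjusted p = 0.101, edgeR), and it was called lower without SEM::mock replicate 2 (-0.26, adjusted p = 0.0496) and with SEM::EGR3 replicate 2 left out (-0.25, adjusted p = 0.0335). IRF9 was counted 16, 7 and 9 times in SEM::mock and 64, 24 and 50 times in SEM::EGR3, or 1.92 ± 0.839 and 4.30 ± 1.16 CPM (log2 fold change 1.17, SE 0.30, adjusted p = 0.00132, edgeR).

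The 5 largest called changes of the pathway list were increases from 0 or few counts. RNF135, which encodes a ubiquitin ligase for RIG-I, had 0 counts in SEM::mock and 285, 116 and 143 in SEM::EGR3, which makes it at least 94.9-fold higher (adjusted p = 2.81e-14, edgeR). IRF8, a factor of myeloid and B cells, had 0 counts in SEM::mock and 165, 82 and 116 in SEM::EGR3, which makes it at least 63.3-fold higher (adjusted p = 7.79e-13, edgeR). The counts of both were far from the detection limit in SEM::EGR3. TLR3, the endosomal receptor of double-stranded RNA, had 0 counts in SEM::mock and 33, 14 and 14 in SEM::EGR3, which makes it at least 10.6-fold higher (adjusted p = 7.64e-07, edgeR). CGAS, the DNA sensor, gave counts of 1, 5 and 0 in SEM::mock and of 245, 101 and 136 in SEM::EGR3 (log2 fold change 5.33, SE 0.33, adjusted p = 3.36e-13, edgeR). DHX58, which encodes the RIG-I-like protein LGP2 and is interferon-stimulated, was counted 2, 2 and 6 times in SEM::mock and 61, 27 and 27 times in SEM::EGR3 (log2 fold change 2.55, SE 0.39, adjusted p = 2.63e-06, edgeR). STING1, which acts directly below CGAS, went the other way with 26.5 ± 3.27 and 11.6 ± 1.70 CPM (log2 fold change -1.19, SE 0.12, adjusted p = 5.61e-09, edgeR). It was named after its values were seen.

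**Figure D3:**
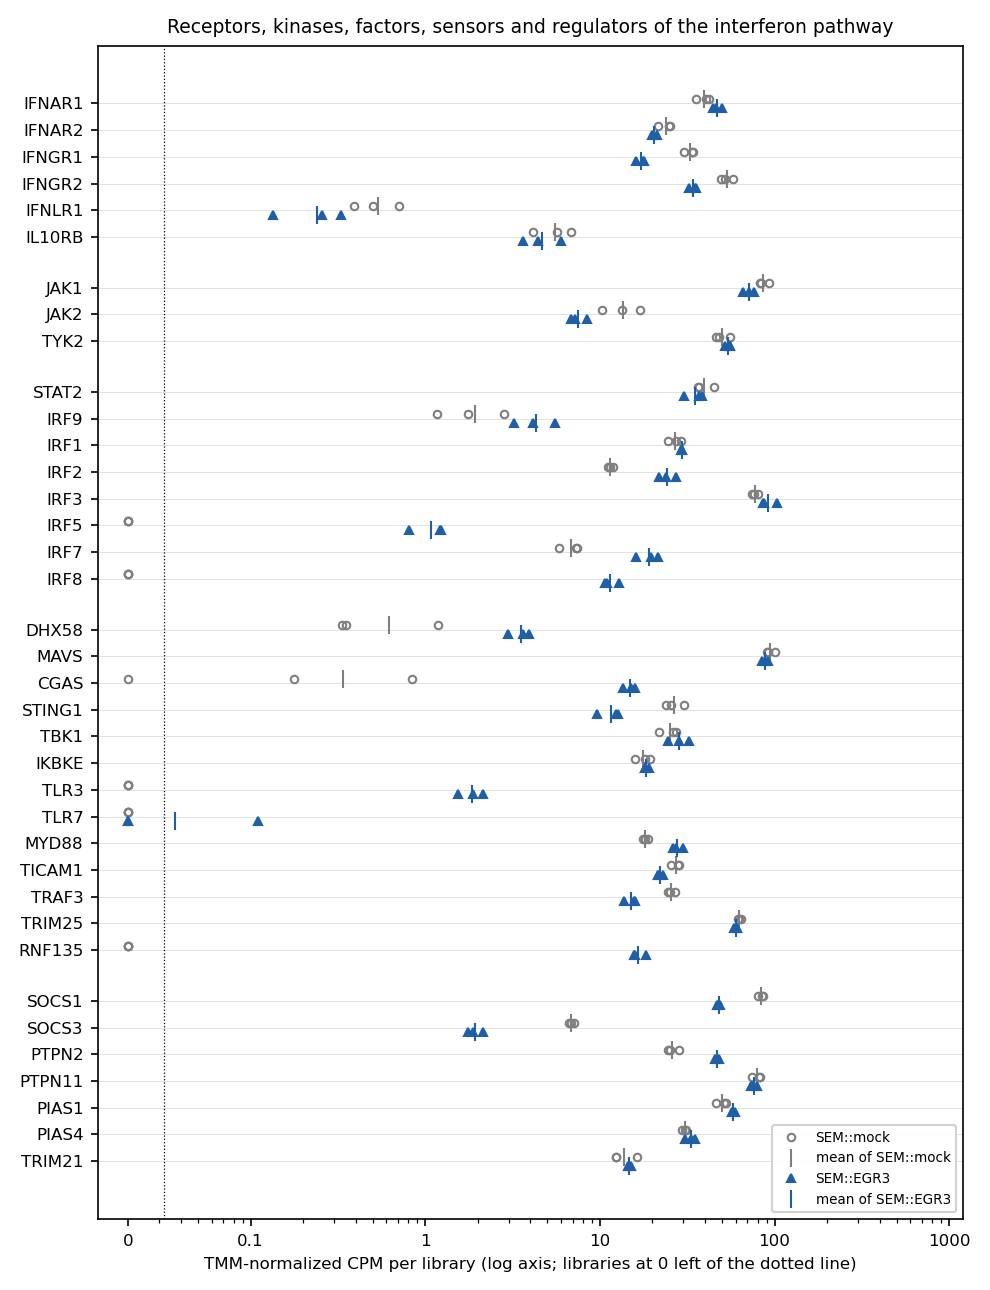
TMM-normalized CPM (log axis) of receptors, kinases, transcription factors, sensors with their adaptors, and negative regulators of the interferon pathway in the 3 SEM::mock (grey circles) and 3 SEM::EGR3 libraries (blue triangles), with the mean of each line as a tick and libraries at 0 left of the dotted line. The libraries of STAT2 overlap, and IRF8, TLR3 and RNF135 have no count in SEM::mock.

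A second list of 56 interferon-stimulated symbols outside the 41 was read in the same way. Of 55 with a row, 47 were tested, 16 were higher, 21 were lower and 10 did not pass the test, with a median log2 fold change of -0.16 beside 0.03 over all tested genes. The shares were 34% higher and 44.7% lower, beside 36.5% and 32% of all tested genes. The largest increases were again in genes with few or no counts in SEM::mock. SLFN11, which halts replication after DNA damage, had 0 counts in SEM::mock and 370, 187 and 223 in SEM::EGR3, which makes it at least 136-fold higher (adjusted p = 4.3e-16, edgeR). RTP4 had 0 against 47, 16 and 29 counts, at least 16.0-fold higher (adjusted p = 5.65e-08, edgeR). CASP1, the protease of inflammasomes, had 2, 4 and 2 against 211, 124 and 136 counts (log2 fold change 4.92, SE 0.28, adjusted p = 6.75e-14, edgeR), and SLFN5 had 3, 0 and 2 against 79, 45 and 38 (4.02, SE 0.44, adjusted p = 1.4e-08, edgeR). The largest decreases were in APOL1 (67.0 ± 3.51 and 24.4 ± 0.164 CPM, log2 fold change -1.45), TRIM14 (24.7 ± 2.25 and 10.1 ± 1.49 CPM, -1.26), SERPING1, the C1 inhibitor (31.1 ± 2.65 and 15.8 ± 0.685 CPM, -0.97), and TRIM38 (83.5 ± 7.75 and 44.4 ± 2.30 CPM, -0.92). These 4 decreases passed the test with adjusted p between 1.38e-14 and 5.64e-09 (edgeR).

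**Figure D4:**
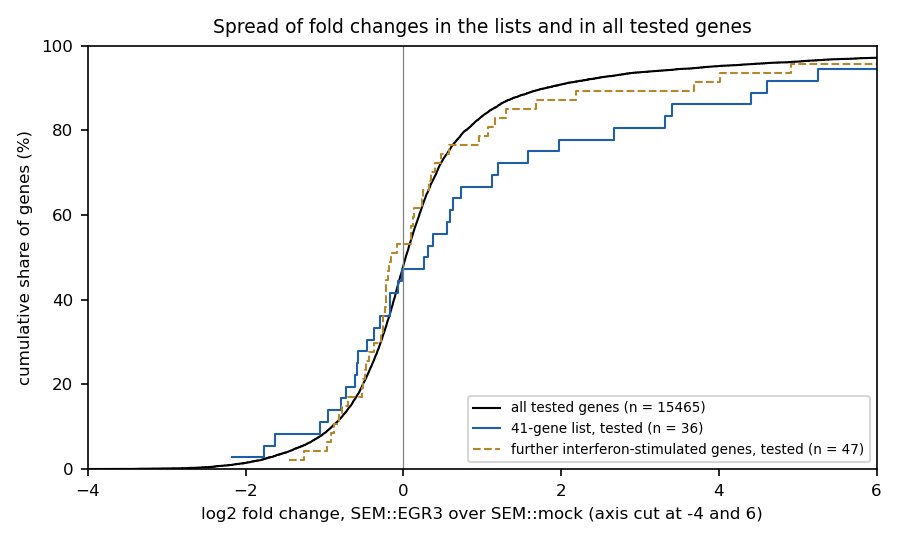
Cumulative share of genes (%) by fitted log2 fold change of SEM::EGR3 over SEM::mock, for all 15465 tested genes (black), the 36 tested interferon-stimulated genes (blue) and the 47 tested genes of the second list (dashed). The axis ends at -4 and 6. Above 6 lie 2 genes of each list and 448 of all tested genes, and below -4 lie 2 of all tested genes. Of the 12 genes of the blue line at increases of at least 1, 8 were kept by the filter through SEM::EGR3, where they are high, so the gap to the black line there is no result about the group.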

How the data were processed

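MACE-Seq libraries of 3 biological replicates each of SEM::mock and SEM::EGR3 were compared. The table the authors deposited holds raw counts, whole numbers for each gene, which were the input of all tests. The authors also deposited CPM values (headed TPM, without length correction) and a size-factor normalized signal, neither used further, and their own DESeq2 comparison, which was not read. The column headings spell ERG3 and were matched to SEM::EGR3. Per the labels, the submitters' notes name bcl2fastq, Bowtie2, HTSeq and GRCh38. Strand and annotation settings are not given in the sources used here.

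Counts were fitted over all 6 libraries in R 4.3.3 with edgeR 4.0.16 (filterByExpr, TMM, glmQLFit, glmQLFTest), and p-values were adjusted by Benjamini-Hochberg over 15465 tested genes with a threshold of 0.05. The script was tested on simulated data. CPM are counts per 1000000 TMM-normalized counts of the tested genes. With 0 counts over a line, the fold, where given, is a lower bound against 3 counts over that line. It takes the counts of the other line as observed. With 1 to 3, the ratio has an exact conditional binomial interval. The bound covers counting error of the line at 0 alone, and the interval that of both lines. Neither covers more, since reads are not independent molecules without molecular identifiers. Positions come from GENCODE 29 (34339 of 35410 identifiers, 41 of 41 members) and promoters from RefSeq.

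The 41 members and all lists were chosen with earlier results of these data known. Named were all members, with full statistics for those past the threshold whose log2 fold change was 1 or more in absolute size or with at most 3 counts over a line and at least 20 over the other, and up to 3 examples per role. Beside EGR3 as the targeted gene, STAT2, IRF9, receptors, kinases, ligands with a count and the 5 largest called changes of the pathway list were named, and from the second list the 4 largest called changes in each direction. GBP3 of that list was named as a neighbour of GBP1 after its values were seen. Single values of 1 gene of the pathway list are not reported here. Further members were named to account for each gene. Alternatives were DESeq2 1.42.0, no or upper-quartile normalization factors, leaving out the filter or asking for 10 counts in every library, counts thinned to the smallest library, a replicate block, removal of each library in turn, and a minimum absolute log2 fold change of 1.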

Additional observations from a re-analysis of the deposited data

How the results depend on the processing

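Of the 33 called members, 28 (17 higher, 11 lower) kept their direction and call under every alternative that gave a value (the minimum fold change aside), and UBE2L6, HERC6, DTX3L, BST2 and IFI27 lost theirs under at least 1. With at least 10 counts in every library, fewer members (27) were tested, and 11 were higher in place of 19. The members' median log2 fold change was -0.11 in place of 0.29, and 7 in place of 13 pathway genes were higher. Of all 12801 genes tested at that filter, 4251 were higher and 4230 lower, with a median of -0.001. When a log2 fold change of 1 in absolute size was required, 12 members were higher and 4 in place of 14 lower. Leaving out each library in turn gave 18 to 19 higher and 12 to 14 lower members, a median of 0.29 to 0.36, 11 to 14 higher and 9 to 11 lower pathway genes, and 15 to 17 higher and 19 to 22 lower genes of the second list. The sign of 2 genes that did not pass the test turned, OAS3 to 0.006 and EIF2AK2 to 0.056 without normalization factors and EIF2AK2 to 0.029 with 10 counts in every library. Over the fits that left out a library, EIF2AK2 ran from -0.070 to 0.018 (without SEM::EGR3 replicate 2). The cause was not tested. DESeq2 called 17 members higher and 12 lower.

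The replicate numbers did not pair the samples, as the deviations of same-numbered libraries from their line means correlated at -0.105, -0.063 and -0.034 across genes. With the replicate number as a block, 18 members were higher and 13 lower, 13 and 9 pathway genes, and 17 and 20 genes of the second list, with a member median of 0.29. Depth limited the members with few counts: OASL, IFI44L and USP18 had 8 counts or fewer in SEM::EGR3.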
